A study of Homo sapiens with 12 samples.

Results

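The interferon response genes are 52 human genes whose transcripts are known to rise when a cell senses interferon. They were taken as a named list, and their probes on the array were found by current or older gene symbol in the platform annotation. Probes were found for 51 of the 52, 78 probes in all, and STAT2 had none by that rule. A probe had to lie above a background level of 7.27 on at least 2 arrays, which left 45 of the 52 to be tested among 11808 genes. The 6 genes that were too dim were IFIT5, MX1, EPSTI1, GBP2, LGALS3BP and SAMHD1, each above that level on no more than 1 of 12 arrays.

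Type I interferons bind a receptor at the cell surface, its kinases of the JAK family phosphorylate STAT proteins, and a complex of STATs with IRF9 enters the nucleus and binds the interferon-stimulated response element (ISRE). Interferon gamma acts through another receptor and a STAT dimer that binds the gamma-activated site (GAS). The products of the induced genes cut or bind viral RNA, block entry and release of virus particles, tag proteins with the ubiquitin-like ISG15, and trim peptides for display to T cells. Monocytes are known both to make interferon and to respond to it.

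Total RNA was measured on 12 Illumina bead arrays from THP-1, a human monocytic leukaemia cell line. All cells carried a CRISPR construct and were 17 days past selection, and all had been infected with a lentivirus 5 days before RNA was taken. The construct was non-targeting (lines NT-2 and NT-3), against miR-150 (the miR-150 lines, numbered 3 and 4) or against p21, the protein of CDKN1A (lines p21-2 and p21-3). Each of the 6 lines had 1 array with a virus that carried KLF4, a zinc finger transcription factor of the monocytic lineage, and 1 array with an empty control virus (ECV). Each of the 6 groups of target and virus thus holds 2 arrays, which limits the precision, and the p-values measure the spread between lines, which may be technical. No label says whether a line was a clone or a pool of cells. Line NT-2 is shown apart from the other 5 because earlier results of these data had singled it out, so what separates it is given as values with no p-value.

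Of 14 markers of a monocytic leukaemia line, 12 were tested and 10 lay above the background level on all 12 arrays. No T cell or epithelial marker was tested. Single B cell, NK cell, erythroid and fibroblast markers passed the filter at levels near background. The KLF4 probes did not rise with the KLF4 virus, with mean log2 levels of 7.80 and 7.70 for 1 probe and 7.80 and 7.57 for the other, ECV first, so they do not check the labels. Whether these probes match the delivered sequence is not stated in the labels. A probe of CDKN1A rose from a mean of 9.16 to 11.74 and was higher with KLF4 in each line, by 1.97 to 3.25. In the p21 lines its levels were 9.11 and 8.88 with ECV and 11.08 and 11.37 with KLF4, against 9.22 and 9.16 and then 12.48 and 11.66 in the NT lines. Neither difference between p21 and NT lines passed the limma test (-0.19 on ECV arrays, SE 0.202, adjusted p = 0.989; -0.84 on KLF4 arrays, SE 0.202, adjusted p = 0.222). With each virus the p21 arrays lay below the NT arrays, yet the transcript was still present and rose with KLF4. Whether it was partly lost in the p21 lines was not resolved, and the arrays do not measure the protein.

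The regulatory letters of the members are shown first, because many of these genes carry the same element. A window of 300 bases, 250 before and 50 after an annotated start, was available for 43 of the 52 members from RefSeq (build GRCh38.p14). Some genes had several starts and windows, and a gene was counted where any of its windows held the letters. The ISRE letters are GAAA followed by any 2 bases and a second GAAA, on either strand. They were in a window of 29 of the 43, or 67.4%, against 4.38% of 27305 genes. The stretches below read 5′ to 3′ on the strand of the gene, with the ISRE matches in capitals (the GAS match in IRF1) and overlapping matches merged. IFIT1, ISG15, IFI6 and PARP9 were higher with KLF4, BST2 and HERC5 were lower, and IRF1 is shown for its GAS letters TTCNNNGAA.
IFIT1: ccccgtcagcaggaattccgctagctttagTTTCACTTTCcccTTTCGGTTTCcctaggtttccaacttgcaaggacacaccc
ISG15: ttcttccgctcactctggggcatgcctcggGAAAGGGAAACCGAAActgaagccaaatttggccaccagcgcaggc
IFI6: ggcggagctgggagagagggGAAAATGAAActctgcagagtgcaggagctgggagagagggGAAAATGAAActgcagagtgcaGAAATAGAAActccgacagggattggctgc
PARP9: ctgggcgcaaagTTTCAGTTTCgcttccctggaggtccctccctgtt
BST2: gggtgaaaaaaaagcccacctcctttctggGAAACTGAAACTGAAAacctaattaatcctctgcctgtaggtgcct
HERC5: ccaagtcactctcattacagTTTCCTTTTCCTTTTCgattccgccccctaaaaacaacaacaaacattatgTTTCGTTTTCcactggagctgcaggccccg
IRF1: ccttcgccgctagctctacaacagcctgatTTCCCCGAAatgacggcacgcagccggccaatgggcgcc

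These stretches lie at chr10:89392477-89392559 (IFIT1, plus strand), chr1:1013354-1013429 (ISG15, plus), chr1:27672256-27672368 (IFI6, minus), chr3:122564307-122564353 (PARP9, minus), chr19:17405715-17405790 (BST2, minus), chr4:88456974-88457074 (HERC5, plus) and chr5:132490859-132490927 (IRF1, minus). All end before an annotated start of their gene. PARP9 has another window, from another start, and that window held no ISRE letters. IFIT1, ISG15 and BST2 hold 2 ISRE matches each (BST2 also has GAS letters that overlap the first, left in lower case where they lie outside it), and IFI6 and HERC5 hold 3. The match of PARP9 is also that of its neighbour DTX3L, read from the other strand, since these genes start close together and run apart (chr3:122564332-122564341). The GAS letters were in a window of 13 of the 43 members, or 30.2%, against 9.38% of all genes. The letters GGGNGTGG, a form of the KLF4 motif, were in 9 of the 43, or 20.9%, against 19.9% of all genes. A match is a description of letters only.

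Most of these genes were higher with KLF4. As a mean over the 3 CRISPR targets, 31 of the 45 tested members were higher with KLF4 than with ECV and 4 were lower, MX2, HERC5, XAF1 and BST2, at an adjusted p under 0.05 (limma with Benjamini-Hochberg adjustment over all genes tested). In bulk RNA, more responding cells and more RNA per cell cannot be told apart. In the same comparison 18.7% of all genes were higher and 23.7% lower. The median member differed by 0.51 on the log2 scale, against -0.01 for all genes, and the members ran from -0.63 for MX2 to 1.94 for OAS1. In 28 members, or 62.2%, all 6 KLF4 arrays lay above all 6 ECV arrays, against 11.6% of all genes. No member had all its KLF4 arrays below its ECV arrays, against 13.8% of all genes. In 9 members the rise was at least 2-fold and called, by the probe used for each, against 1.37% of all genes. They were OAS1, IFIT1, IFIT2, IRF7, ISG15, IRF9, OAS2, PARP9 and SAMD9. None of the 4 lower members reached a 2-fold fall, against 0.229% of all genes.

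The same calls were made without line NT-2. Over the other 5 lines, 31 members were higher and 4 lower, against 19.3% and 23.6% of all genes, and they were the same 31 and the same 4. The median member then differed by 0.39. With a 2-fold minimum 4 were higher and 0 lower, against 1.21% and 0.195% of all genes. The 10 members not called in either fit were IFI44, USP18, IFITM1, IFI35, TRIM22, RSAD2, ISG20, CMPK2, IFITM3 and IFI44L.

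**Figure D1:**
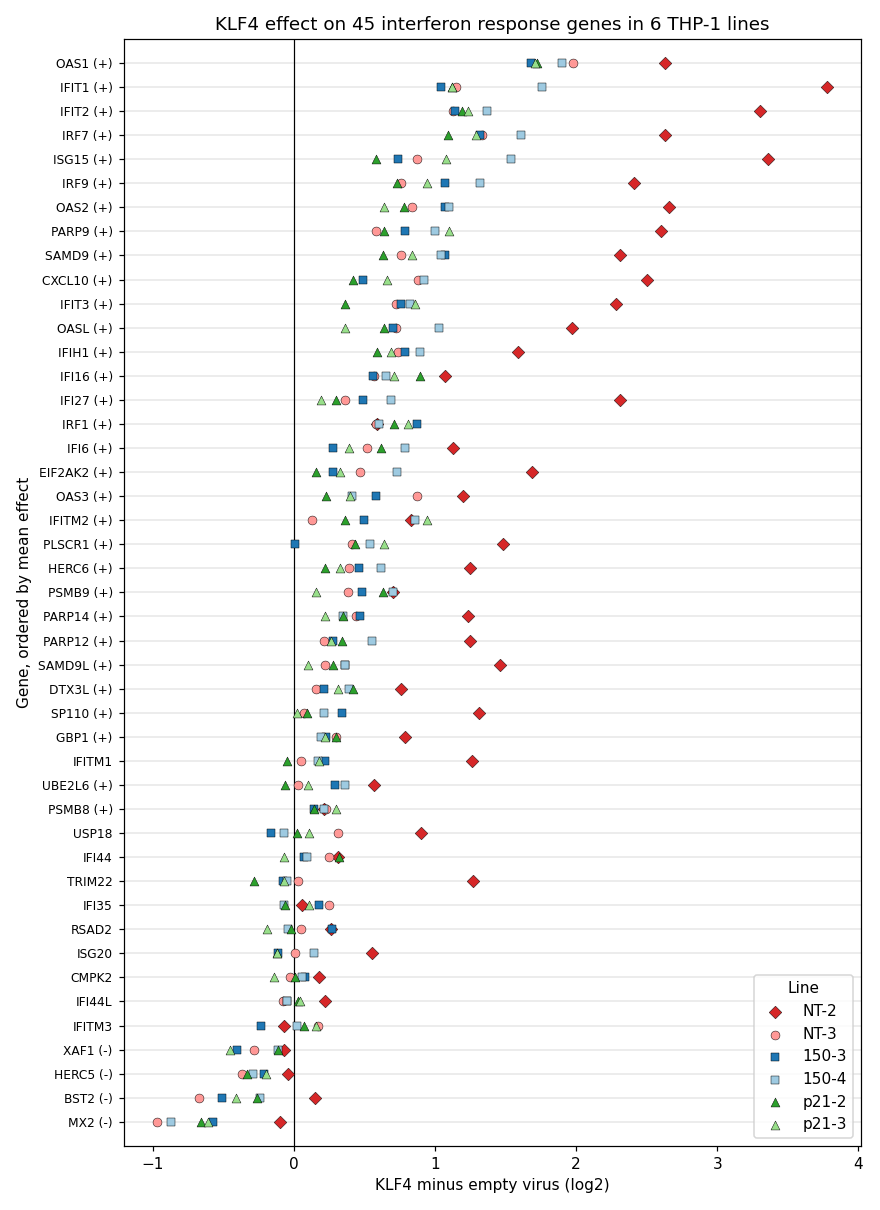
KLF4 minus ECV on the log2 scale (horizontal axis) for the 45 tested genes, ordered by their mean effect, with 1 point per line and (+) or (-) for a mean effect called higher or lower. The red diamonds of line NT-2 lie to the right of the other 5 lines in 38 genes, and MX2, BST2, HERC5 and XAF1 stand at the foot.

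Among the sensors and transcription factors of the cascade, all 5 tested members rose. For this and the other classes below, 18.7% of all genes were called higher and 23.7% lower. IRF1, a factor that drives interferon and its targets, lay at log2 levels of 9.17 to 9.44 (median 9.29) on the 6 ECV arrays, at 9.93 to 10.15 (median 10.02) on the KLF4 arrays of the other 5 lines, and at 9.76 on that of NT-2. Every KLF4 array was above every ECV array, and the NT-2 array was the lowest of the KLF4 arrays. The mean difference was 0.69 (SE 0.0675, adjusted p = 1.8e-06 by limma), with 0.59 in NT-2 and 0.58 to 0.87 elsewhere. IRF1 was 1 of 7 members in which NT-2 did not have the highest effect.

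IRF7, the master factor for interferon alpha, ran from 7.84 to 8.09 (median 7.90) with ECV and from 8.93 to 9.70 (median 9.18) with KLF4 in the other 5 lines, and reached 10.62 in NT-2. Its viruses did not overlap, and its mean difference was 1.54 (SE 0.17, adjusted p = 6e-06), a 2.92-fold rise. IFI16, a sensor of DNA, went from 10.57 to 10.85 (median 10.75) with ECV to 11.15 to 11.57 (median 11.49) with KLF4 in the other 5 lines and 11.66 in NT-2. Its viruses did not overlap, and the difference was 0.74 (SE 0.0745, adjusted p = 2.5e-06), with 0.56 to 0.89 in the other lines and 1.07 in NT-2. IRF9, the DNA-binding part of the ISRE complex, rose by 1.21, and IFIH1, the RNA sensor MDA5, by 0.88.

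Effectors against double-stranded RNA rose in 5 of 6 tested members. OAS1 makes the short adenylate chains that switch on RNase L, and it had the largest mean effect of all members. It lay at 8.48 to 8.77 (median 8.57) with ECV, at 10.20 to 10.67 (median 10.43) with KLF4 in the other 5 lines and at 11.20 in NT-2. The gap between the viruses was wider than either spread, with a mean difference of 1.94 (SE 0.0971, adjusted p = 2.6e-09), or 3.83-fold, and 1.80 without NT-2.

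OAS3, another synthetase of this family, lay at 7.56 to 7.91 (median 7.83) with ECV, at 8.01 to 8.48 (median 8.29) with KLF4 in the other 5 lines and at 8.93 in NT-2. It did not overlap between viruses and rose by 0.61 (SE 0.0832, adjusted p = 3.7e-05). OAS2 rose by 1.18, OASL by 0.90 and EIF2AK2, the kinase PKR that halts translation, by 0.61 (0.39 without NT-2). ISG20, an RNA exonuclease, differed by 0.06 and was not called. OAS1, OAS3 and OAS2 are neighbours on chromosome 12, and all were called higher.

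The IFIT family is known for IFIT1, which binds viral RNA without the methylated cap of the host, and all 3 tested members rose. IFIT1 lay at 7.58 to 7.88 (median 7.64) with ECV, at 8.75 to 9.41 (median 8.92) with KLF4 in the other 5 lines and at 11.36 in NT-2. Its viruses did not overlap, and the NT-2 array stood far above the rest. The mean difference was 1.66 (SE 0.279, adjusted p = 0.000247), and 1.24 (SE 0.0739, adjusted p = 1.5e-12) without NT-2. IFIT2 lay at 7.61 to 7.99 (median 7.75) with ECV, at 8.80 to 9.16 (median 8.95) with KLF4 in the other 5 lines and at 10.91 in NT-2. It rose in the same manner, by 1.56 (SE 0.223, adjusted p = 6e-05), and IFIT3 rose by 0.97.

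**Figure D2:**
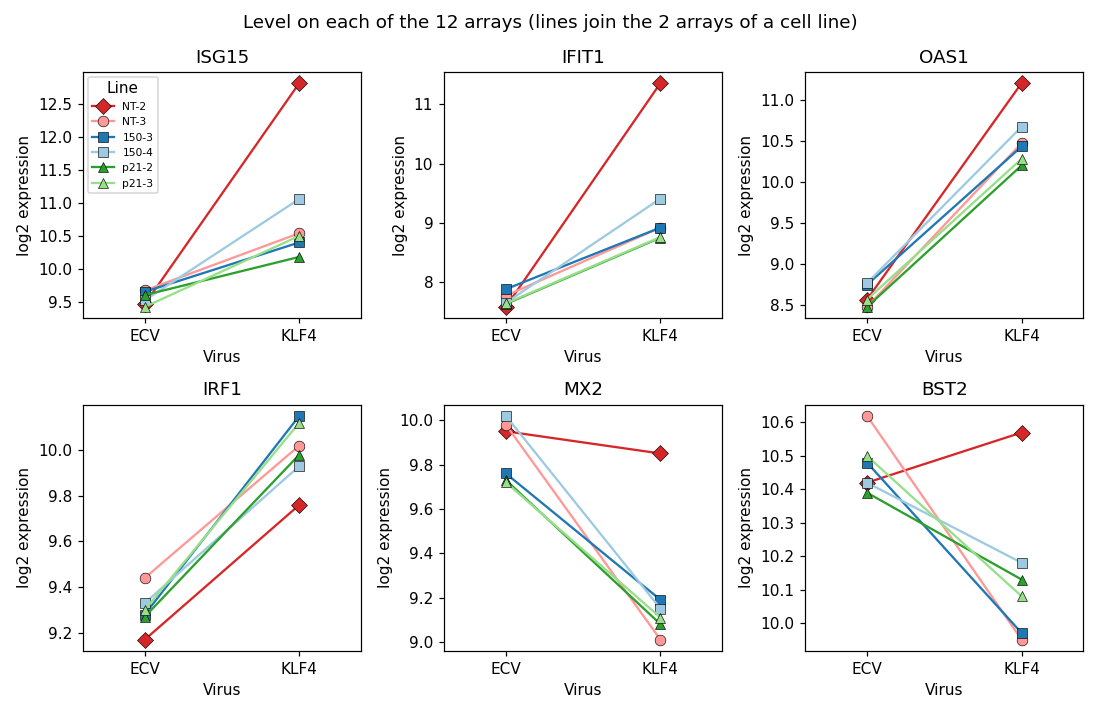
Log2 expression on each of the 12 arrays for 6 members, with a line joining the ECV and KLF4 array of each cell line (vertical axes differ and do not start at 0). ISG15, IFIT1 and OAS1 rose in every line with the steepest slope in NT-2, IRF1 rose in parallel in all lines, and MX2 and BST2 fell in the other 5 lines and differed little in NT-2.

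Of 6 tested members that act at membranes or on the nucleotide pool, 1 was higher and 1 lower, near the 18.7% and 23.7% of all genes. IFITM2, which blocks the fusion of virus with endosomes, lay at 11.14 to 11.45 (median 11.28) with ECV, at 11.58 to 12.09 (median 11.79) with KLF4 in the other 5 lines and at 12.24 in NT-2. It rose by 0.60 (SE 0.104, adjusted p = 0.000308), with no overlap of the viruses. IFITM1 and IFITM3 were not called, at 0.31 and 0.02, and the probes of these near-identical genes may not tell them apart. BST2, or tetherin, holds budding virus at the cell surface, and it went the other way. It lay at 10.39 to 10.62 (median 10.45) with ECV, at 9.95 to 10.18 (median 10.08) with KLF4 in the other 5 lines and at 10.57 in NT-2. The viruses overlapped only through NT-2, and the mean difference was -0.32 (SE 0.0889, adjusted p = 0.00867), or -0.42 without NT-2. RSAD2 (viperin) and its neighbour CMPK2, which make and supply an antiviral nucleotide, stayed near background and differed by 0.06 and 0.03.

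Of the interferon-induced GTPases, MX2 and GBP1 were tested. MX2, which restricts the nuclear entry of HIV-1, lay at 9.72 to 10.02 (median 9.86) with ECV, at 9.01 to 9.19 (median 9.11) with KLF4 in the other 5 lines and at 9.85 in NT-2. Without NT-2, all its KLF4 arrays lay below all its ECV arrays. Its mean difference was -0.63 (SE 0.107, adjusted p = 0.000269), against -0.74 (SE 0.0595, adjusted p = 3.7e-10) without NT-2. GBP1, which coats bacteria and their vacuoles, was not above background on any ECV array and was at least 1.14-fold higher with KLF4 (adjusted p = 0.000853), or at least 1.09-fold without NT-2. The bound sets its KLF4 mean against the background level.

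ISG15 conjugation was split within the pathway. ISG15 itself lay at 9.42 to 9.67 (median 9.56) with ECV, at 10.18 to 11.06 (median 10.50) with KLF4 in the other 5 lines and at 12.82 in NT-2. The NT-2 array was the highest by a wide margin, and the viruses did not overlap. The mean difference was 1.36 (SE 0.268, adjusted p = 0.000887), and 0.96 (SE 0.0897, adjusted p = 4.2e-09) without NT-2. HERC6, a HECT-type ligase whose mouse form attaches ISG15, rose from 7.56 to 7.77 (median 7.70) to 7.95 to 8.23 (median 8.01) in the other 5 lines and 8.99 in NT-2. That rise of 0.54 (SE 0.12, adjusted p = 0.0021) was found without overlap.

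HERC5, the human ISG15 ligase and the neighbour of HERC6 on chromosome 4, lay at 10.57 to 10.74 (median 10.67) with ECV, at 10.28 to 10.48 (median 10.41) with KLF4 in the other 5 lines and at 10.61 in NT-2. It was lower in all 6 lines, by 0.04 in NT-2 and 0.20 to 0.37 elsewhere, and fell by 0.24 in the mean (SE 0.0605, adjusted p = 0.00513). UBE2L6, the conjugating enzyme, rose by 0.22 (0.14 without NT-2), and USP18, which removes ISG15, differed by 0.18 and was not called.

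The 4 members of the PARP and DTX3L class all rose. PARP9 forms a complex with the ubiquitin ligase DTX3L, and lay at 7.55 to 7.73 (median 7.65) with ECV, at 8.27 to 8.71 (median 8.45) with KLF4 in the other 5 lines and at 10.15 in NT-2. It did not overlap between viruses, with a mean difference of 1.12 (SE 0.214, adjusted p = 0.00071). DTX3L lay at 7.26 to 7.48 (median 7.36) with ECV, at 7.50 to 7.79 (median 7.70) with KLF4 in the other 5 lines and at 8.01 in NT-2. It too did not overlap, and rose by 0.37 (SE 0.0746, adjusted p = 0.000971). PARP14 and PARP12 rose by 0.51 and 0.48.

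The immunoproteasome subunit PSMB9, which shapes peptides for class I display, lay at 7.77 to 8.15 (median 7.81) with ECV, at 8.26 to 8.48 (median 8.38) with KLF4 in the other 5 lines and at 8.49 in NT-2. It rose by 0.51 (SE 0.0688, adjusted p = 3.7e-05) without overlap. PSMB8, another such subunit, rose by 0.21, with the same 0.21 in NT-2. CXCL10, a chemokine for T cells, rose by 0.98 and was far higher in NT-2, at 2.50, than in the other lines, at 0.42 to 0.92.

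Of the 11 other tested members, 6 rose and 1 fell, against 18.7% and 23.7% of all genes. SAMD9, which restricts poxviruses, lay at 8.47 to 8.81 (median 8.53) with ECV, at 9.12 to 9.85 (median 9.37) with KLF4 in the other 5 lines and at 10.78 in NT-2. It rose by 1.11 (SE 0.167, adjusted p = 9.8e-05) without overlap, and its neighbour SAMD9L, not above background with ECV, was at least 1.26-fold higher (adjusted p = 0.0146), or at least 1.12-fold without NT-2. IFI6, a mitochondrial and endoplasmic reticulum protein that limits flaviviruses, lay at 10.62 to 11.05 (median 10.77) with ECV, at 11.15 to 11.44 (median 11.40) with KLF4 in the other 5 lines and at 11.88 in NT-2. The viruses did not overlap, and the mean difference was 0.62 (SE 0.106, adjusted p = 0.000276).

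XAF1, a pro-apoptotic factor, lay at 7.72 to 7.94 (median 7.85) with ECV, at 7.44 to 7.76 (median 7.61) with KLF4 in the other 5 lines and at 7.70 in NT-2. Its viruses overlapped, and it fell by 0.24 (SE 0.064, adjusted p = 0.00834). Its other kept probe, above background on 5 arrays against 12 for the probe used, differed by 0.08. The mean of both probes gave -0.08 (adjusted p = 0.196 by limma), so this call rests on the choice of probe. IFI27 was not above background with ECV and was at least 1.53-fold higher with KLF4 (adjusted p = 0.0149), or at least 1.24-fold (adjusted p = 3.4e-06) without NT-2. It differed by 2.31 in NT-2 and by 0.19 to 0.69 elsewhere. SP110 rose by 0.34, with 1.31 in NT-2 and 0.02 to 0.34 elsewhere, and by 0.15 without NT-2 (adjusted p = 0.0385). PLSCR1 rose by 0.58. IFI44, TRIM22, IFI35 and IFI44L were not called, at 0.16, 0.14, 0.08 and 0.02.

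Line NT-2 had the strongest response. The median member was 1.23 higher with KLF4 in NT-2, against 0.30 to 0.54 in the other 5 lines, while the medians over all genes lay between -0.03 and -0.01 in every line. The members' median level with ECV was 7.73 in NT-2 and 7.75 to 7.84 elsewhere. With KLF4 it was 9.45 in NT-2 and 8.27 to 8.48 elsewhere. Its KLF4 array was the highest by a wide margin, and its ECV array the lowest by a narrow one. In NT-2, 26 members were at least 2-fold higher, against 2.91% of all genes, and in the other lines 4 to 10 were, against 1.24% to 1.47%. NT-2 had the highest effect of the 6 lines in 38 of 45 members, or 84.4%, against 22% of all genes.

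The NT-2 effect exceeded the median of the other 5 lines by over 1 log2 unit in 18 members, or 40%, against 0.661% of all genes. IFIT1 differed by 3.78 in NT-2 and by 1.04 to 1.76 elsewhere. ISG15 differed by 3.36 and by 0.58 to 1.54, and IFIT2 by 3.30 and by 1.13 to 1.37. TRIM22, an E3 ligase of the TRIM family, differed by 1.27 in NT-2 and by -0.28 to 0.03 elsewhere. The 7 members without their highest effect in NT-2 were IRF1, IFITM2, PSMB8, IFI44, IFI35, RSAD2 and IFITM3. The NT-2 effect exceeded the highest of the other lines by over 0.5 log2 units in 24 of 45 members, against 179 of 11808 genes.

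The members that fell elsewhere also stood higher in NT-2. MX2 differed by -0.10 in NT-2 and by -0.97 to -0.57 in the other lines, and BST2 by 0.15 and by -0.67 to -0.24. The ISRE letters were present in 17 of 26 members called higher with a window, in 2 of 3 called lower and in 6 of 8 not called.

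**Figure D3:**
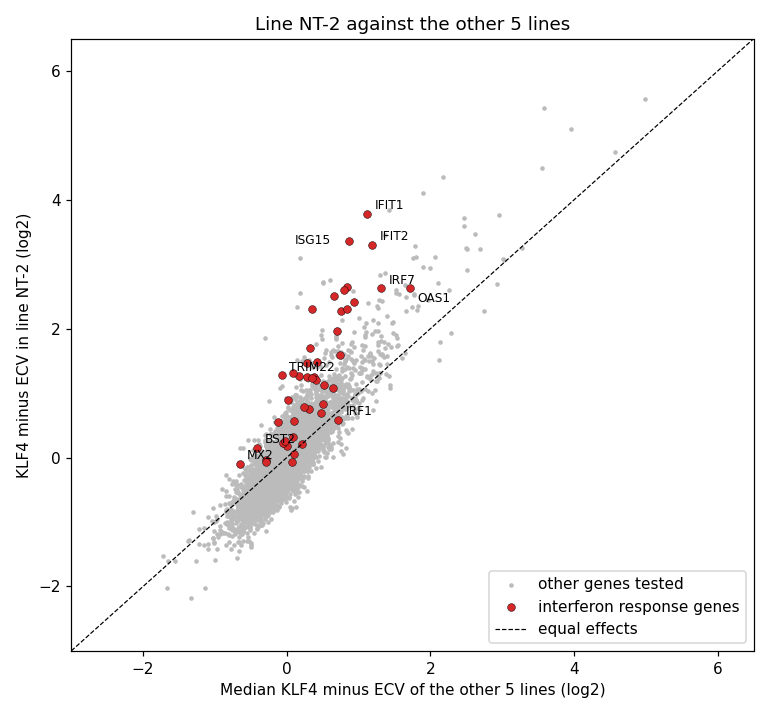
KLF4 minus ECV in line NT-2 (vertical axis, log2) against the median of the other 5 lines (horizontal axis, log2) for each of 11808 genes, with the 45 members in red and the dashed line marking equal effects. Most members lie above the dashed line, IFIT1, ISG15 and IFIT2 farthest, while IRF1 lies just below it.

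The effects of the lines were also set against each other. Over the 45 members, Pearson's r between the effects of any 2 of the other 5 lines was 0.89 to 0.919, and between NT-2 and each of them 0.729 to 0.879. Over all genes the same values were 0.808 to 0.847 and 0.773 to 0.849. These are descriptions over members that share arrays, with no test. NT-2 also had a wider spread over all genes, an SD of 0.477 for its effects against 0.329 to 0.353. Of the 78 genes that exceeded the other lines by over 1 log2 unit in NT-2, 18 were members, 4 were on the pathway lists given next and 56 were neither, among them the chemokine genes CCL3 and CCL7 and the macrophage receptor CD163. CDKN1A differed by 3.25 in NT-2 and 1.97 to 2.74 elsewhere. The 12 monocytic markers went both ways, with a median effect of 0.17 in NT-2 and 0.08 to 0.21 elsewhere, and 4 of them had their highest effect in NT-2. FCGR1A, a receptor for IgG, differed by 1.99 in NT-2 and by 0.33 to 0.81 elsewhere, and CD14 by 1.41 and by 0.29 to 0.75. SPI1 differed by 0.73 and by 0.09 to 0.64, and CSF1R by 0.36 and by -0.19 to 0.02. Other markers had their lowest effect in NT-2: LYZ at -0.14 (0.06 to 0.57 elsewhere) and ELANE at 0.44 (0.75 to 1.25). The same held for CEBPA at -0.64 (-0.24 to 0.02) and MEIS1 at -0.42 (-0.41 to 0.10). The part of any of these in the members' response was not tested, and with 1 KLF4 array of NT-2 the line and its array cannot be told apart.

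Other genes of the interferon pathway were read from lists of each step. The ligands came first: all 21 interferon genes on the list had a probe, and none passed the background filter, so no change in interferon transcripts was detectable on these arrays. Of 5 tested receptor chains, 3 rose and none fell, against 18.7% and 23.7% of all genes called higher and lower. IFNGR1, the ligand-binding chain for interferon gamma, lay at 11.08 to 11.27 with ECV and 11.63 to 11.97 with KLF4, and rose by 0.58 (SE 0.0624, adjusted p = 4.4e-06). IFNGR2 rose by 0.31 and IL10RB, shared with interferon lambda, by 0.29. IFNAR1, of the type I receptor, differed by 0.06 and was not called.

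Among 10 tested genes of JAK-STAT signalling, 5 rose and none fell, and 4 rose without NT-2. Of all genes, 18.7% were higher and 23.7% lower, and 19.3% were higher without NT-2. STAT3 lay at 8.65 to 9.06 with ECV and at 9.67 to 10.26 with KLF4, and rose by 1.12 (SE 0.101, adjusted p = 8.6e-07). The phosphatase PTPN6 rose by 0.50, JAK1 by 0.24 and the inhibitor SOCS1 by 0.22. Among 14 tested genes of nucleic acid sensing, 6 rose and 1 fell, and 5 rose without NT-2, against the same shares of all genes. AIM2, which senses DNA in the cytosol, lay at 7.65 to 8.14 with ECV and at 9.03 to 10.51 with KLF4, and rose by 1.65 (SE 0.19, adjusted p = 8.7e-06). TICAM1 rose by 0.68, MYD88 by 0.53 and STING1, the adaptor for cyclic dinucleotides, by 0.51.

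Of 4 other IRF genes tested, none rose and 2 fell, against 18.7% and 23.7% of all genes. IRF8, a factor of monocyte and dendritic cell identity, lay at 9.89 to 10.25 with ECV and at 9.16 to 9.47 with KLF4, and fell by 0.71 (SE 0.066, adjusted p = 1.2e-06). IRF5 fell by 0.14. Of 40 further interferon-induced genes that are no members, 14 rose and 1 fell, against the same shares of all genes. The median of the list was 0.14. Without NT-2 the counts were also 14 and 1, against 19.3% and 23.6% of all genes, with 12 and 1 genes in common. WARS1, a tryptophan tRNA synthetase known to respond to interferon gamma, lay at 9.84 to 10.13 with ECV and at 10.95 to 11.39 with KLF4, and rose by 1.23 (SE 0.0681, adjusted p = 7e-09). Its lines were nearly equal, 1.19 in NT-2 and 1.11 to 1.30 elsewhere. LY6E rose by 1.32, the peptide transporter TAP1 by 0.85 and the ligase TRIM25 by 0.64. The monocyte chemokine CCL8, chosen after its values were seen, had the largest gap of all genes, 3.11 in NT-2 and 0.09 to 0.76 elsewhere.

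**Figure D4:**
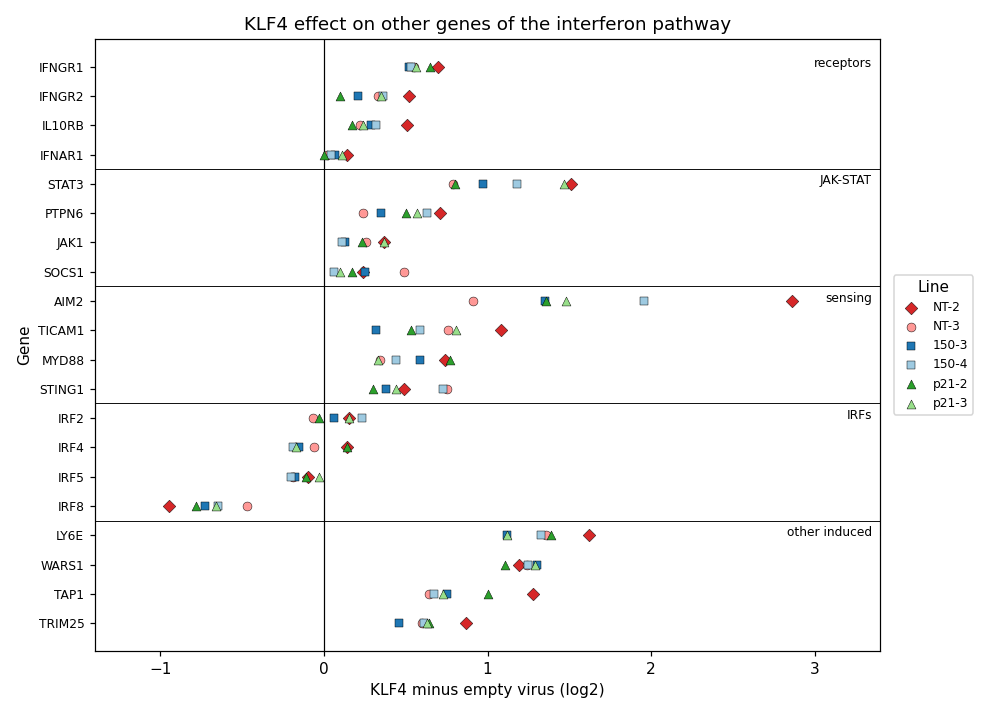
KLF4 minus ECV on the log2 scale (horizontal axis) for 20 genes of the interferon pathway outside the members, grouped by receptor, signalling, sensing, IRF family and other induced genes, with 1 point per line. AIM2 spreads from 0.91 to 2.86 with NT-2 highest, WARS1 is nearly equal in all lines, and IRF8 is lower with KLF4 in every line.

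The study's design also compares the response to KLF4 between lines with constructs against miR-150 or p21 and NT lines. Within the non-targeting lines, 30 members were higher with KLF4 and 1 lower, against 12.2% and 15.3% of all genes, with a median of 0.73. Within the miR-150 lines, 13 were higher and 1 lower, against 8.32% and 8.5%, with a median of 0.42. Within the p21 lines, 8 were higher and 1 lower, against 8.98% and 10.3%, with a median of 0.28. The 7 members called higher in all 3 targets were IFI16, IFIH1, IFIT2, IRF1, IRF7, OAS1 and PSMB9, and MX2 was the 1 lower in each. With a 2-fold minimum, 16 members were higher in NT lines, 6 in miR-150 lines and 3 in p21 lines, against 1.93%, 1.36% and 1.21% of all genes. At that minimum 0 were lower in each, against 0.415%, 0.169% and 0.229%.

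These counts depend on the 2 arrays of the non-targeting lines with KLF4, whose SD over genes was 0.194, against 0.0902 to 0.112 in the other groups, and all groups share 1 estimate of the spread. Without line NT-2, 28 members were higher in the miR-150 lines, 26 in the p21 lines and 20 in line NT-3, against 12.4%, 12.7% and 8.06% of all genes. Without the KLF4 array of NT-2 or that of NT-3, the miR-150 count was 27 and the p21 count 26, against 12% and 12.4% of all genes. Leaving out 1 array of the miR-150 lines themselves gave 2 to 7, against 4.51% to 5.82% of all genes, and leaving out 1 array of the p21 lines gave 3 to 5, against 5.05% to 5.87%.

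The difference of the KLF4 effect itself was tested between miR-150 or p21 lines and non-targeting lines, with the same NT arrays in both comparisons. No member passed for miR-150 or for p21, and of all genes 0% did (0 of 11808 by limma; 4 and 10 members, and 490 and 689 genes, had an unadjusted p under 0.05). The median member's effect was lower than in NT lines by a log2 difference of -0.33 for miR-150 and -0.52 for p21. The smallest p among members was that of OAS3 for p21, at -0.72 (SE 0.204, adjusted p = 0.83), and that of USP18 for miR-150, at -0.72 (SE 0.204, adjusted p = 0.974). Without line NT-2 the medians were 0.12 and -0.03. Without the KLF4 array of NT-3, which leaves that of NT-2 alone for the NT lines, 28 members were called lower for miR-150 and 28 for p21, against 2.58% and 3.24% of all genes. With 2 lines a target, whether the constructs alter the members' response was not resolved.

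The levels were also compared within each virus. With ECV no member differed between NT and miR-150 or p21 lines, against 0% of genes for miR-150 and 0.00847% lower for p21. The unadjusted limma p was under 0.05 in 0 members for miR-150 and 1 for p21, against 393 and 640 of 11808 genes. The members' median differences were 0.03 and 0.02. With KLF4 no member passed either, against 0% of genes for miR-150 and 0.0423% lower for p21. The unadjusted p was under 0.05 in 5 and 21 members, against 633 and 1323 of 11808 genes. The median members lay at -0.30 and -0.44 relative to the NT lines, and at 0.12 and -0.04 without NT-2. The counts that follow set the lone KLF4 array of NT-2, singled out beforehand, against the other lines. They test neither the constructs nor NT-2, and no conclusion is drawn from them. Without the KLF4 array of NT-3, 29 members were called lower for miR-150 and 30 for p21, against 4.98% and 6.52% of all genes.

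Probes of the same member often differed in size. Of 14 members with several kept probes, 13 had probes of 1 sign. IFIT1's other probe differed by 0.07 and that of PSMB9 by 0.02, while 3 of the 4 probes of OAS1 gave 1.84 to 2.01 and the remaining probe 0.38. These low probes of IFIT1, PSMB9 and OAS1 were above background on only 4, 7 and 5 arrays. IFI6 gave 0.62 and 1.14, with the larger value from the probe not used. Other kept probes gave less than 2-fold for PARP9 (0.74 against 1.12), IRF7 (0.87 and 0.23 against 1.54) and OAS2 (0.40 and 0.19 against 1.18). The other probe of PARP9 was above background on all 12 arrays, those of IRF7 on 8 and those of OAS2 on 3 and 2. NT-2 had the highest effect in 30 of the 37 kept probes of these genes. Each gene is represented above by its probe with the highest mean level, and the positions of the probes in the transcripts were not used here.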

How the data were processed

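The authors deposited log2 expression values, from 6.69 to 14.8, of 47323 probes on 12 arrays. Array medians agree to the second decimal, as after normalization between arrays; neither its method nor a background correction or scanner is named in the labels or headers. Biotinylated cRNA was hybridised to Illumina arrays, per the labels' protocols. A deposited table of raw signals has 24 columns whose names fit no label. They were left aside, and detection p-values could not serve as a filter, as had been planned.

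A background level of 7.27 was set as the 95th percentile of a distribution mirrored at the commonest value, and probes above it on at least 2 arrays were kept (21585). Symbols came from the platform annotation: 30113 probes had 1 symbol, 8 several and 17202 were not listed, and 30074 gene identifiers were found in a RefSeq gene table. Of a gene's kept probes, that with the highest mean stood for it (11808 genes).

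Group means were estimated over all arrays by limma 3.58.1 in R 4.3.3 (lmFit, eBayes), with Benjamini-Hochberg adjustment over all genes and calls under 0.05. The scripts were tested on simulated data. An ECV and a KLF4 array of 1 line share that CRISPR line, which pairs them; their deviations from the group means correlated at 0.097, -0.0505 and 0.0707 (NT, miR-150, p21). Members given in full were, for each role, the 2 with the smallest p (1 in roles with under 4 tested), the 5 largest effects called, the 3 largest NT-2 gaps and all called lower. For each pathway list the 4 smallest p were named. The members and lists were chosen with earlier results of these data known. Alternatives changed the filter, background, normalization, probe choice, variance model, weights, line block, threshold and arrays. Figures were drawn with matplotlib 3.10.9.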

Additional observations from a re-analysis of the deposited data

Results flagged for a closer look

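In 8 of the 20 results looked at, the KLF4 effect of line NT-2 lay so far from the other 5 lines that its gap to the nearest, as a share of the whole range, exceeded Dixon's limit for 6 values. The result for the median of the members was 1.23. Single members were IFIT1 at 3.78, ISG15 at 3.36, IFIT2 at 3.30, OAS1 at 2.63, IRF7 at 2.63, PARP9 at 2.60 and SAMD9 at 2.31. All 8 were high values of the same line, so they are not separate events. Chance marks about 1 in 20 such results where no line is singled out beforehand. Here NT-2 had been singled out from earlier results of these data, and IFIT1, ISG15 and IFIT2 met the rule for large NT-2 gaps. The effects of NT-2 also had a wider spread over all genes, an SD of 0.477 against 0.329 to 0.353. The 1 in 20 is thus no yardstick here. The limit serves as a description of the values and not as a test of that line.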

How the results depend on the processing

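The 31 higher and 4 lower members of the mean effect stayed within 1.5 times under each alternative except the 2-fold threshold, which left 9 and 0. That threshold left 4 and 0 over the 5 lines without NT-2, 16 and 0 in NT, 6 and 0 in miR-150 and 3 and 0 in p21 lines. With CRISPR line as a replicate block the counts were 33 and 4 for the mean, 31 and 4 over the 5 lines, 32 and 1 in NT, 16 and 1 in miR-150 and 10 and 1 in p21 lines, and the block changed no count of the differences from 0.

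Fitting only the groups compared gave 8 and 0 in NT, 28 and 3 in miR-150 and 26 and 4 in p21 lines. Leaving out line NT-2 gave 3 lower in NT lines, 28 and 3 in miR-150 and 26 and 4 in p21 lines, and array weights gave 25 and 2 in miR-150 and 21 and 3 in p21 lines. The mean of the kept probes left 0 lower in NT and 5 higher in p21 lines, no filter left 0 lower in NT lines, and cyclic loess left 0 lower in NT and in p21 lines. The causes were not tested.

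Leaving out 1 array at a time gave 30 to 35 higher and 4 lower for the mean, and 29 to 30 higher and 4 lower over the 5 lines. In NT lines it gave 22 to 35 higher and 0 to 3 lower, in miR-150 lines 2 to 27 and 0 to 3, and in p21 lines 3 to 26 and 0 to 3. Called counts of the differences from NT lines are not given here, because without the KLF4 array of NT-3 that of NT-2 stands alone. In such fits an arm with a lone array is assumed to vary like the other groups. Left-out arrays moved the median difference of the KLF4 effect for miR-150 between -0.79 and 0.08, and that of the levels with KLF4 between -0.75 and 0.12. The former reversed to 0.12 without line NT-2 and to 0.08 without its KLF4 array, and the latter to 0.12 in both.

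Each of the 19 members given in full kept its direction. The alternatives ended 13 calls, 12 under the 2-fold threshold and that of XAF1 with the mean of its probes. The stricter filter asked for values above background on all 6 arrays of a virus, or above a level 0.5 higher on 2 arrays. Values near background understate differences, and 2 arrays a group leave small differences unresolved.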
